A study of Mus musculus with 6 samples.

Results

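Single-nucleus RNA sequencing (snRNAseq) of whole cerebella was used to describe the nuclei that carry RNA of Pdgfra and Vcan, genes that mark oligodendrocyte precursor cells (OPCs). The nuclei were selected on measured values: a nucleus was kept if it held 0 unique molecular identifiers (UMIs, each counting 1 captured RNA molecule) of the myelin gene Mog and at least 2 UMIs of Pdgfra plus Vcan, and if its deposited cell type label did not name an endothelial, mural or choroid plexus cell. This rule chose 1260 of 45473 nuclei. They came from 3 SCA1 mice (334, 217 and 215 nuclei) and 3 wild-type (WT) mice (287, 76 and 131 nuclei), all 12 weeks old. SCA1 mice were of the strain labelled Pcp2-ATXN1[82Q], in which the Purkinje cell promoter Pcp2 drives a human ATXN1 transgene with an expanded CAG repeat, and WT mice were littermates labelled C57Bl6. The transgene is thus directed to Purkinje cells, and any difference in glial nuclei was measured in cells that the promoter does not target. Each sample was 1 cerebellum.

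OPCs are dividing glial cells that stay in the adult brain and form new oligodendrocytes. They depend on the growth factor PDGF-A, which acts through the receptor encoded by Pdgfra, they receive synapses from neurons, and their surface carries chondroitin sulfate proteoglycans such as versican (Vcan) and NG2 (Cspg4). When they differentiate, they lose Pdgfra and Cspg4, pass through a stage marked by Gpr17, and switch on Myrf and the myelin genes.

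The promoter windows of Pdgfra, Vcan, Tnr and Cspg4 are shown because Tnr and Cspg4 RNA accompanied Pdgfra and Vcan, the genes of the rule, in most of the nuclei that carried both. Each is the 250 bases before the RefSeq gene start, on the gene's strand, in the mouse build GRCm38.p6. Capitals mark the E-box letters CATCTG, which OLIG and ASCL proteins can bind, or the SOX letters ACAAAG on either strand. The window of Pdgfra is at chr5:75152001-75152250 (plus strand), that of Vcan at chr13:89742513-89742762 (minus strand), that of Tnr at chr1:159523519-159523768 (plus strand) and that of Cspg4 at chr9:56864854-56865103 (plus strand).
Pdgfra: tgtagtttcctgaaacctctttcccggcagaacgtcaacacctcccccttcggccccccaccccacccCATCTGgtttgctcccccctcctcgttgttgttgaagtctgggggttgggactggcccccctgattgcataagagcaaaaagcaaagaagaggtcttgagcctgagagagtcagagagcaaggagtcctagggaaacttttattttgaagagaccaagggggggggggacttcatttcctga
Vcan: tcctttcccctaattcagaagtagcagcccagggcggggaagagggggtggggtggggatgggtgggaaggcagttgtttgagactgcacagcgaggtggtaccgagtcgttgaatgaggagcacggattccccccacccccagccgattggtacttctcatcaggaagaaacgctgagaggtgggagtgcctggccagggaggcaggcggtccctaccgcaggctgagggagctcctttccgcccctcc
Tnr: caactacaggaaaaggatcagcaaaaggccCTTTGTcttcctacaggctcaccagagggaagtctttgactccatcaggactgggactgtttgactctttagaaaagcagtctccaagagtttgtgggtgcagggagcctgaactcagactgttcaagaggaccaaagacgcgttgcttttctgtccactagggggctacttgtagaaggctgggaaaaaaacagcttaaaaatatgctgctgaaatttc
Cspg4: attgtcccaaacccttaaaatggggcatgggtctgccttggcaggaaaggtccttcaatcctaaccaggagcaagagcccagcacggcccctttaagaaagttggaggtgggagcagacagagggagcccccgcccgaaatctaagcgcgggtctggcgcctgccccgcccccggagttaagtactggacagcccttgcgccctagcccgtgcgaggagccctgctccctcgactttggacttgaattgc
Both strands were searched for 4 motifs. The first E-box motif was spelled CAGCTG, and the other E-box motif had the letters CATCTG. The first SOX motif was spelled ACAAAG, and the other SOX motif had the letters ACAATG. The Pdgfra window held CATCTG, the Tnr window held ACAAAG on its minus strand, and the Vcan and Cspg4 windows held none. CATCTG occurred in 14.4% and ACAAAG in 16.5% of 32851 mouse promoter windows of the same length, and 44.1% of them held at least 1 of the 4 motifs. These matches describe letters only.

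The deposited labels did not place most of these nuclei in the oligodendrocyte lineage. Of the 1260 nuclei, 574 (45.6%) were labelled as astroglia, 329 (26.1%) as inhibitory neurons, 246 (19.5%) as granule neurons and 67 (5.32%) as oligodendrocyte lineage. The label words granule, Purkinje, fibroblast and Bergmann in the rule removed no nucleus, because the labels name those cells by genes, and the remaining words removed 77 nuclei that met the UMI criteria. A further 168 nuclei met the Pdgfra and Vcan criterion but held Mog. Beside the threshold, nuclei with 1 UMI of Pdgfra plus Vcan (1909 nuclei, not chosen) held Cspg4 RNA in 1.15% of cases, nuclei with 2 UMIs (542) in 2.40%, nuclei with 3 (204) in 1.47% and nuclei with 4 or more (514) in 24.5%. Cspg4 was thus rare right beside the threshold, at 1 to 3 UMIs.

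The 1260 nuclei fell into 3 classes by which of the selecting genes they carried. In 1008 of them (80.0%) Vcan was detected without Pdgfra (Pdgfra-Vcan+), in 198 both were detected (Pdgfra+Vcan+) and in 54 only Pdgfra (Pdgfra+Vcan-). The Pdgfra-Vcan+ nuclei were labelled as astroglia in 54.8% and as inhibitory neurons in 28.1% of cases. Cspg4 was detected in 1.88% of them and Sox10, a transcription factor of the whole oligodendrocyte lineage, in 3.47%, against 0.592% and 2.04% of granule neurons, which should lack both. Tnr, the gene of the matrix protein tenascin-R, was detected in 53.6% of them but also in 39.5% of granule neurons, so it marked no lineage on its own. Of the Pdgfra+Vcan- nuclei, 51 of 54 were labelled as granule neurons, and pooled over mice they held the fibroblast genes Dcn at 241 CPM (counts per 1000000 UMIs) and Col1a2 at 66.8 CPM, against 6.92 and 5.76 CPM in granule neurons. Neither class matched the OPC label by its markers, and they are called by their genes below. Median depth was 9862 UMIs in Pdgfra-Vcan+ nuclei, 7022.5 in Pdgfra+Vcan- nuclei and 5890 in granule neurons.

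The Pdgfra+Vcan+ class held the OPC markers. Its 198 nuclei were 59, 29 and 21 in SCA1 and 62, 10 and 17 in WT mice, and carried a median of 4 Pdgfra UMIs (range 1 to 27) and 8 Vcan UMIs (range 1 to 128). Of these, 135 lay in 1 cluster of their mouse's deposited Seurat clustering, which grouped nuclei by their whole expression, and 63 were spread over other clusters. In the cluster, Tnr was detected in 99.3% of the nuclei, Cspg4 in 85.9%, Sox10 in 75.6% and the sialidase gene Neu4 in 78.5%. The secreted synaptic protein gene C1ql1 was detected there in 65.2% and Cacng4, the gene of an auxiliary AMPA receptor subunit, in 95.6%. Outside the cluster, Tnr was detected in 55.6%, Cspg4 in 7.94%, Sox10 in 11.1% and Neu4 in 1.59%. Most of the nuclei outside the cluster came from the first mouse of each genotype, 29 from SCA1 and 25 from WT mouse 1, against 6, 2, 0 and 1 in the others. Of the 135 nuclei in the cluster, 60 were labelled as oligodendrocytes, 34 as granule neurons, 17 as an inhibitory neuron type and 1 as a polydendrocyte, another name for the OPC. Of the 38, 32, 39, 47, 76 and 17 nuclei in the cluster of SCA1 mice 1 to 3 and WT mice 1 to 3, 30, 23, 19, 37, 10 and 16 were Pdgfra+Vcan+. Further results are given for the Pdgfra+Vcan+ nuclei, a class set after the labels and markers were seen, and for all 1260 nuclei where they are tested.

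**Figure D1:**
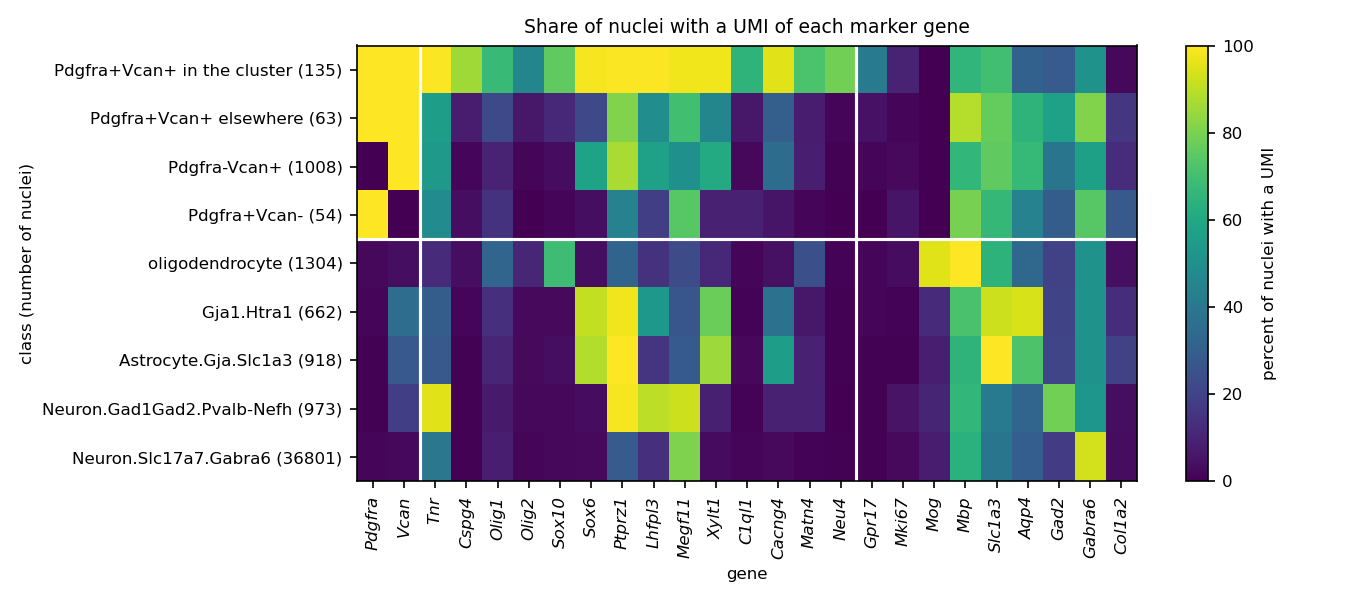
Share of nuclei with at least 1 UMI of each marker gene (colour, percent), with genes along the x axis and classes of nuclei, with their numbers, along the y axis; rows above the white line are the nuclei chosen by the rule. Pdgfra+Vcan+ nuclei in 1 cluster per mouse held Cspg4 in 85.9% and Neu4 in 78.5% of cases, whereas Pdgfra-Vcan+ nuclei held Cspg4 in 1.88%.

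Depth differed between mice. The chosen nuclei held 434586 to 4918064 UMIs per mouse (16173885 in all, median 9773.5 per nucleus), and the Pdgfra+Vcan+ nuclei 50702 to 779098 (2381603 in all, median 10125). In WT mouse 2, 1 nucleus held 18446 of the 50702 UMIs. Pdgfra+Vcan+ nuclei outside the cluster held 415154 of 779098 UMIs in SCA1 mouse 1 and 331511 of 761986 in WT mouse 1. WT mouse 2 was the shallowest, with a median of 4124.5 UMIs per chosen nucleus against 7608 to 11202 in the others. Library numbers fell into 2 ranges, and the first mouse of each genotype was in the lower range. Barcodes shared between mice numbered 254 among all nuclei and 0 among the chosen nuclei. RNA counted as human ATXN1, the gene of the transgene, had 12, 15 and 19 UMIs in Purkinje-labelled nuclei of the SCA1 mice. It had 0 in those of each WT mouse. In granule neurons it had 36, 36 and 39 UMIs in SCA1 and 27, 16 and 14 in WT mice. Such counts thus also occurred in mice without the transgene.

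Pdgfra+Vcan+ nuclei were first compared with 1304 nuclei labelled as oligodendrocytes, summed in each mouse. Levels are CPM after trimmed mean (TMM) scaling, and differences are log2 values with 1 CPM added, given as mean ± SD over 6 mice. Because the nuclei were selected on Pdgfra, Vcan and Mog, and the oligodendrocyte labels rest on all genes, these differences are a description without a test. A gene is called apart where its 6 values in one class lay beyond all 6 in the other. Of 14959 genes, 1030 (6.89%) were apart and higher in the Pdgfra+Vcan+ nuclei, and 1173 (7.84%) apart and lower. The median difference over all genes was -0.28.

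Counts of each list leave out Pdgfra, Vcan and Mog, whose direction the rule fixed. Of the 14 other OPC markers, 10 were apart and higher and 4 overlapped, with a median difference of 4.98. Tnr was at 1562, 2363 and 5923 CPM in SCA1 and 1632, 1773 and 4999 CPM in WT mice, and at 14.2 to 116 CPM in oligodendrocytes (5.95 ± 2.07). Cspg4 was at 153, 116 and 277 CPM in SCA1 and 153, 29.3 and 352 CPM in WT mice, and at 1.58 to 13.7 CPM in oligodendrocytes (4.14 ± 2.03). WT mouse 2, the shallowest, was the lowest for Cspg4 with 2 UMIs, fewer than the 3 that a count of 0 allows, and the lowest of the other 5 mice was 116 CPM. C1ql1 was at 67.0 to 109 CPM in all 6 mice, and at 0 to 5.42 CPM in oligodendrocytes (5.17 ± 1.31). Neu4 was at 69.5 to 209 CPM against 0 to 10.8 CPM (5.80 ± 1.68). Sox6, a transcription factor that keeps precursors undifferentiated, differed by 6.70 ± 2.66, Lhfpl3 by 6.19 ± 1.14, the xylosyltransferase gene Xylt1, whose enzyme starts the sugar chains of proteoglycans, by 5.82 ± 1.56, the receptor phosphatase gene Ptprz1 by 4.79 ± 1.33 and Megf11 by 3.59 ± 0.69. Pdgfra (7.18 ± 2.27) and Vcan (7.41 ± 2.24) were fixed by the rule. The 4 markers that overlapped were 3 transcription factor genes of the whole lineage, Olig1 (0.18 ± 0.66), Olig2 (1.16 ± 0.92) and Sox10 (-0.64 ± 0.53), and the matrilin gene Matn4 (1.05 ± 0.89). In the sum of all 1260 nuclei 10 of the 14 were apart and higher as well (median 2.93), and the 4 genes that overlapped here were apart and lower than in oligodendrocytes, Sox10 by 3.20 ± 0.36, with 17.4 to 33.5 CPM against 155 to 333 CPM.

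**Figure D2:**
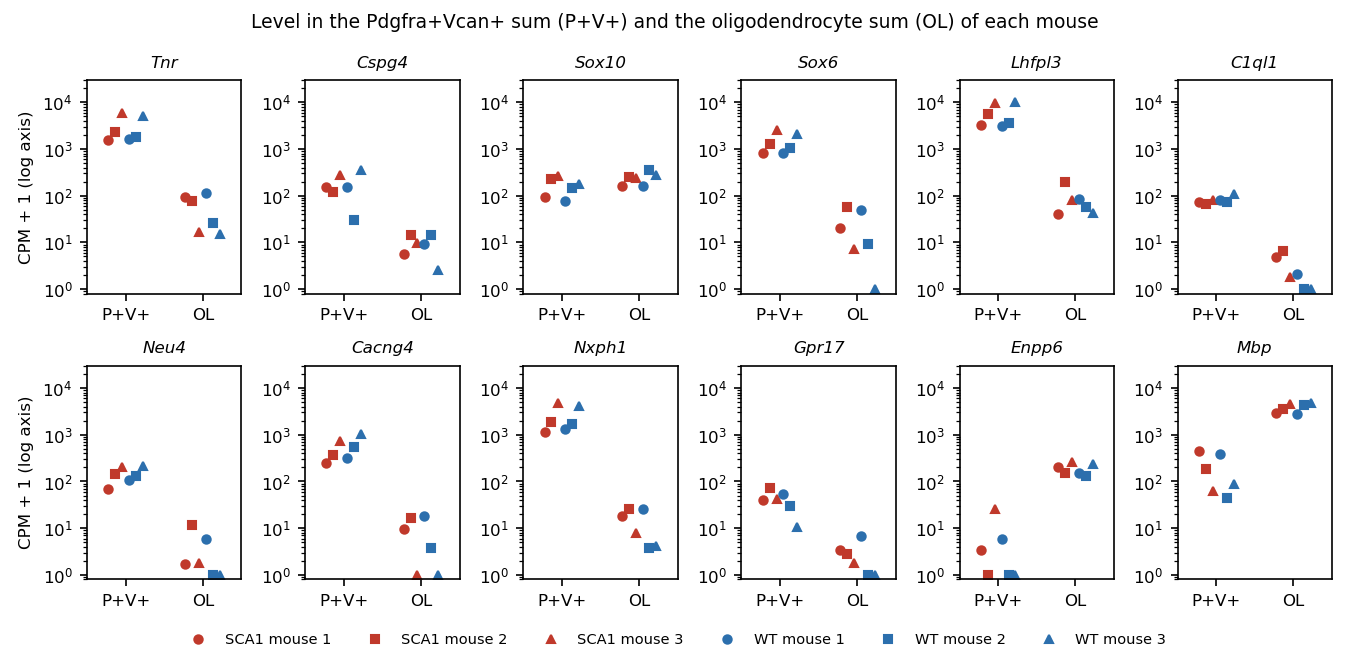
Level of 12 genes in the Pdgfra+Vcan+ sum (P+V+) and the oligodendrocyte sum (OL) of each mouse, as CPM + 1 on a log axis; each point is 1 mouse, coloured by genotype and shaped by mouse number. Tnr, Cspg4, Sox6, Lhfpl3, C1ql1, Neu4, Cacng4, Nxph1 and Gpr17 were higher in P+V+ in all 6 mice, Enpp6 and Mbp lower, and Sox10 overlapped.

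The myelin genes lay at the other end. All 14, Mog left out, were apart and lower in the Pdgfra+Vcan+ nuclei, with a median difference of -5.29. Mbp, the gene of myelin basic protein, was at 445, 179.8 and 63.0 CPM in SCA1 and 384, 43.9 and 85.5 CPM in WT mice, against 2750 to 4739 CPM in oligodendrocytes (-4.74 ± 1.70). It was highest in the first mouse of each genotype. Myrf, the transcription factor that switches on myelin genes, was at 0 in 5 mice and at 1.24 CPM in WT mouse 1, against 116 to 275 CPM (-7.25 ± 0.83). A count of 0 allows 3 UMIs, 43.9 CPM in WT mouse 2, which is still below that range. The size of the Myrf difference rests on the 1 CPM added. The largest difference downward among abundant genes was that of Prr5l, at 0 to 9.93 CPM against 1883 to 3674 CPM (-9.88 ± 1.68), and within the myelin list without Mog that of Aspa (-8.18 ± 2.27), whose enzyme splits N-acetylaspartate for lipid synthesis.

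Genes of the stage between precursor and oligodendrocyte were mixed. Of 10 genes of committed precursors, 2 were apart and higher and 1 lower (median 0.81). Gpr17 was at 39.7, 70.5 and 42.0 CPM in SCA1 and 53.4, 29.3 and 9.5 CPM in WT mice, against 0 to 5.97 CPM in oligodendrocytes (4.02 ± 0.81). WT mice 2 and 3 held 2 UMIs each, fewer than the 3 that a count of 0 allows. Itpr2 was higher as well (3.70 ± 1.24), whereas Enpp6, a marker of newly formed oligodendrocytes, was at 0 to 25.2 CPM against 129 to 256 CPM (-6.00 ± 1.74). Bcas1 (-1.16 ± 0.67) and Nkx2-2 (0.81 ± 0.72) overlapped.

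Proteoglycans, tenascins and the enzymes that build their chains had 11 of 19 genes apart and higher and 1 lower, with a median of 2.87. Beside Cspg4, Tnr, Ptprz1 and Xylt1, already counted among the OPC markers, the higher genes included the chondroitin sulfotransferase gene Chst11 (5.85), the glypican genes Gpc5 (5.40) and Gpc6 (5.16), Csgalnact1 (3.77 ± 1.08), Cspg5 (3.75 ± 0.94) and Bcan (2.87 ± 0.77). The lower gene was Hapln2, whose protein binds hyaluronan at the nodes of myelinated axons (-7.27 ± 1.12). Tnc overlapped (0.53).

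Part of the transmitter receptor genes was higher in these nuclei. Of 22 glutamate receptor genes 11 were apart and higher and 1 lower (median 1.61), and of 13 GABA-A receptor subunits 5 were higher and 0 lower (median 1.54). The metabotropic receptor gene Grm5 was at 832, 1446 and 2909 CPM in SCA1 and 660, 864 and 2690 CPM in WT mice, against 10.1 to 49.7 CPM in oligodendrocytes (6.14 ± 1.39). Grm3, of another group of metabotropic receptors, went the other way, at 29.3 to 163 CPM against 810 to 2118 CPM (-3.78 ± 1.15). Cacng4, an auxiliary subunit of AMPA receptors, differed by 6.67 ± 2.64, and Gabrg3 by 6.83 ± 1.56. Of the AMPA receptor subunits, named after their values were seen, Gria2 (2.59 ± 0.68), Gria3 (4.65 ± 1.36) and Gria4 (2.16 ± 0.45) were apart and Gria1 (1.25) was not. Of 21 sodium, calcium and potassium channel genes measured, 10 were higher and 1 lower (median 1.54). The sodium channel gene Scn3a was highest (5.12 ± 2.00) and Kcna1 lowest (-2.03). In the sum of all chosen nuclei, 15 of 22 glutamate receptor genes were apart and higher and 2 lower (median 2.41). Of 13 GABA-A receptor subunits there, 9 were higher and 0 lower (median 2.46). Of 22 channel genes there, 11 were higher and 2 lower (median 1.46). Higher receptor and channel levels than in oligodendrocytes were thus not particular to the Pdgfra+Vcan+ nuclei.

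Adhesion and guidance genes had 15 of 30 apart and higher and 2 lower, with a median of 2.53. Among them Epha5 differed by 4.61, Sema3d by 4.55 ± 0.57 and Dscam by 4.50 ± 0.90, and the ephrin gene Efnb3 by -4.81 ± 1.88. Growth factor receptors had 2 of 12 higher and 2 lower (median 0.34). The neurotrophin receptor genes Ntrk2 (2.41) and Ntrk3 (2.51) were higher, whereas the FGF receptor gene Fgfr2 (-2.11 ± 0.35) and the neuregulin receptor gene Erbb3 (-2.12 ± 0.55) were lower. Of 15 growth factor genes measured, 5 were higher and 1 lower (median 1.26). Nrg1 differed by 5.63 ± 2.12 and Nrg3 by 3.91 ± 1.05. Pdgfa, which encodes the ligand of the Pdgfra receptor, was at 4.20 to 14.6 CPM against 25.2 to 36.9 CPM in oligodendrocytes (-1.96 ± 0.55). It rested on 8, 2 and 1 UMIs in SCA1 and 6, 1 and 1 in WT mice, and in WT mouse 2 the level of 3 UMIs, 43.9 CPM, was above the oligodendrocyte range, so a lower level was not detectable there.

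Of 23 transcription factors of the lineage 4 were higher and 4 lower (median 0.19). Sox5 (6.22 ± 2.23), Sox6, Prrx1 (4.20) and Myt1 (3.63 ± 1.24) were higher, and Myrf, Nkx6-2 (-4.59 ± 1.46), Zfp536 (-2.49) and Sox2 (-1.37) lower. Of 19 genes of Notch, Wnt, BMP and other brakes on differentiation 4 were higher and 1 lower (median 0.91), with Gpr17, Chrm3 (3.41) and Notch1 (3.40 ± 1.89) above and Gpr37 (-5.51 ± 1.66) below. None of 9 cell cycle genes measured was apart (median 0.90).

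Markers of other cell types stayed near their level in oligodendrocytes in the Pdgfra+Vcan+ sums. None of 8 astrocyte markers (median -0.49), 6 granule neuron markers (-0.31), 8 Purkinje cell genes (-0.57), 6 microglia genes (-0.75) and 11 vascular and fibroblast genes (0.13) was apart. Of 8 interneuron markers 2 were higher, Nxph1 (7.64 ± 1.92), which 97.8% of the nuclei in the cluster held, and Sorcs3 (2.07), whereas the defining gene of inhibitory neurons, Gad2, overlapped (0.55). In the sum of all 1260 nuclei, 5 of 8 astrocyte markers (median 1.70) and 5 of 8 interneuron markers (median 2.09) were apart and higher, and 14 of 14 myelin genes lower (median -5.06). Over all 17375 genes measured in that sum, 2592 (14.9%) were apart and higher and 1352 (7.78%) apart and lower, with a median of 0.17. There Slc1a3, a glutamate transporter gene of astroglia, was at 492 to 1047 CPM against 186 to 278 CPM in oligodendrocytes (1.67 ± 0.61).

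**Figure D3:**
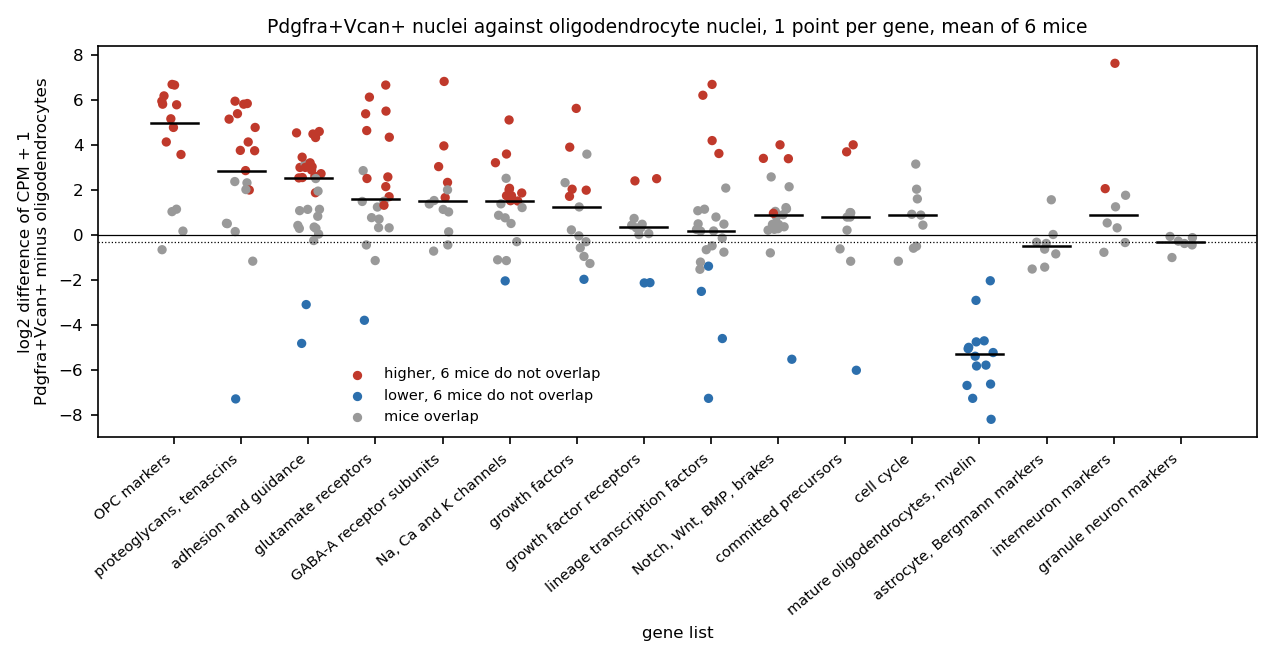
Difference between Pdgfra+Vcan+ and oligodendrocyte sums for each gene of 16 lists, without the genes of the rule (y axis, log2 of CPM + 1, mean over 6 mice), with 1 point a gene, red (higher) or blue (lower) where the 6 mice of both classes do not overlap and grey where they do; the bar is the list's median and the dotted line the median of all genes. OPC markers had a median of 4.98 and myelin genes of -5.29, against -0.28 over all genes.

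Levels in the Pdgfra+Vcan+ nuclei were also set beside those in oligodendrocytes and 12 other labelled types. Other labelled types were not compared, among them polydendrocytes, choroid plexus and mural cells, and Pvalb-Chrm2 and Pvalb-Rab3b inhibitory neurons. Of 3867 genes at 50 CPM or more, 193 had a higher mean level there than in any of these types and 56 were at least 2-fold higher. The 12 highest ratios to the next type were led by Neu4 (50.6-fold, next in oligodendrocytes), Susd5 (35.4-fold), Inava (31.6-fold), 2600014E21Rik (20.1-fold) and Vcan (16.6-fold, next in a Gad1 and Gad2 neuron type marked by Lgi2). They went on with A930009A15Rik, Dnah5 (13.4-fold), Gm42948, Gm38505 and the potassium channel gene Kcnh8 (5.97-fold). Pdgfra, which like Vcan was high by selection, was 5.47-fold above its next type, endothelial tip nuclei that also carried Dcn, and Lhfpl3 5.10-fold. In the sum of all 1260 nuclei, 5 of 4004 such genes exceeded all the types compared. Vcan, on which the nuclei were selected, was the only one at 2-fold or more (5.34-fold). In the Pdgfra+Vcan- nuclei, which did not match the OPC label, 434 of 4063 such genes exceeded all the types, and 17 were at least 2-fold higher. Those means rest on few UMIs. SCA1 mouse 2 held 2 of these nuclei with 12292 UMIs, where 3 UMIs are 244 CPM, and WT mouse 2 held 0. How far this raised the 434 was not tested. The count of 193 is thus not read by itself as setting the Pdgfra+Vcan+ nuclei apart. At 2-fold or more the counts were 56 and 17.

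Mki67 and Top2a, which are high in dividing cells, were detected together in 6 of the 1260 nuclei, and all 6 were Pdgfra+Vcan+ nuclei of the cluster (1, 1 and 2 in the SCA1 mice, 2, 0 and 0 in WT mice). This pair was chosen after its values were seen. It was detected in 0 of 1008 Pdgfra-Vcan+ nuclei, which allows a share of nuclei with both UMIs of up to 0.298%, in 1 of 1304 oligodendrocytes and in 1 of 36801 granule neurons. Interval bounds and such limits cover counting error only, and do not limit how many nuclei were dividing.

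By genotype, the share of chosen nuclei did not differ beyond the spread between mice. It was 3.07%, 3.01% and 3.15% of all nuclei in SCA1 and 2.74%, 1.13% and 3.91% in WT mice. The SCA1 mice lay within the range of the WT mice, which spread more widely. The means were 3.07% ± 0.0695 (SD, n = 3) and 2.59% ± 1.39 (n = 3), and the two-sided exact permutation test gave p = 0.7, where 3 against 3 mice cannot go below 0.1. Within the first library range the difference, SCA1 minus WT, was 0.322 percentage points and in the second 0.558. WT mouse 2, the shallowest, was the lowest, and without it the difference was -0.251 points. Pdgfra+Vcan+ nuclei made up 0.541%, 0.402% and 0.307% in SCA1 and 0.593%, 0.149% and 0.507% in WT mice (0.417% ± 0.118 and 0.416% ± 0.235, n = 3 each, exact permutation p = 1).

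Relative to oligodendrocytes, the SCA1 mice held 105.8 ± 8.36 chosen nuclei per 100 oligodendrocyte nuclei and the WT mice 93.5 ± 44.1 (n = 3 each, exact permutation p = 0.7). For Pdgfra+Vcan+ nuclei these were 14.2 ± 3.04 and 14.6 ± 6.59 (exact permutation p = 0.8).

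**Figure D4:**
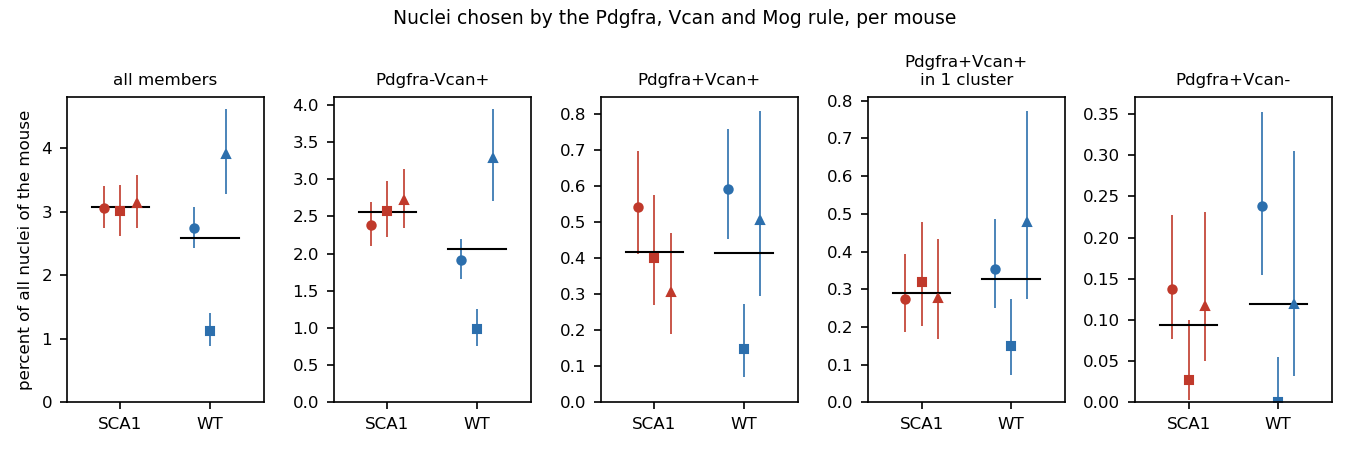
Percent of all nuclei of a mouse (y axis) that were chosen by the rule, and that fell in each class, in SCA1 and WT mice; points are mice with exact 95% binomial intervals, and mice 1, 2 and 3 have their own shapes. The 3 SCA1 mice lay at 3.01% to 3.15% and the 3 WT mice at 1.13% to 3.91% for all chosen nuclei.

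Nuclei with a Gpr17 UMI were 7.19%, 4.15% and 2.79% of the chosen nuclei in SCA1 and 10.5%, 1.32% and 2.29% in WT mice. The values overlapped, and the first mouse of each genotype was highest. Means were 4.71% ± 2.25 and 4.69% ± 5.02 (n = 3 each, two-sided exact permutation p = 1, adjusted 1 over the 2 shares tested). Of the Pdgfra+Vcan+ nuclei, 27.1%, 27.6% and 28.6% held Gpr17 in SCA1 and 41.9%, 10.0% and 11.8% in WT mice (exact permutation p = 0.4), against 1.61% of oligodendrocytes (median depth 6334.5 UMIs) and 0.758% of granule neurons. Thinned to 3000 UMIs per nucleus, the shares among chosen nuclei were 2.03% ± 1.79 and 1.30% ± 1.64. Nuclei with a UMI of any of 16 cell cycle genes were 23.9% ± 7.58 and 21.5% ± 9.12 of the chosen nuclei (exact permutation p = 0.9, adjusted 1), against 18.5% of granule neurons, which were shallower (median 5890 UMIs against 9773.5). Thinned to 3000 UMIs they were 8.58% ± 3.14 and 7.56% ± 5.89, and among Pdgfra+Vcan+ nuclei, without thinning, 28.9% ± 4.89 and 26.0% ± 12.5 (exact permutation p = 0.7).

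No gene passed the test between genotypes. In the sums of all chosen nuclei, edgeR's quasi-likelihood test with genotype and library range called 0 of 13601 genes (0.0%) at an adjusted p of at most 0.05, with 211 genes at an unadjusted p under 0.05. DESeq2 called 2 genes (107 at an unadjusted p under 0.05) and limma-trend 0 (191). In the Pdgfra+Vcan+ sums edgeR called 0 of 6226 genes (0.0%; 69 at an unadjusted p under 0.05) and DESeq2 0 (53). All of these unadjusted counts were below the share of 0.05 expected with no difference. The 3 SCA1 and 3 WT mice did not overlap for 589 genes (4.33%) of the whole set, 301 higher (2.21%) and 288 lower (2.12%) in SCA1, and for 306 genes (4.91%) of the Pdgfra+Vcan+ sums, 163 higher (2.62%) and 143 lower (2.3%). A separation of 3 from 3 mice has a two-sided exact permutation p of 0.1. Both shares were below that rate, so genes named for not overlapping are a description. Without SCA1 mouse 1, or without WT mouse 1, edgeR called 2 genes in the whole set (Zfp804b and Ttr), and without SCA1 mouse 2 it called 1 (Ranbp3l). With low-count genes kept in, edgeR called 18 genes in the whole set and 15 in the Pdgfra+Vcan+ sums. Gm12160, Tnc, Zfp804b, Ndst4, Tafa1 and Ranbp3l were among the 18, and Zfp804b, Ndst4, Sema3a and Ranbp3l among the 15. The 18 also held Tnfrsf8, with 76 UMIs in WT mouse 1 and 0 or 1 in every other mouse. An adjusted p without the filter is thus not read as support. None of the genes below passed edgeR's test with the filter on all 6 mice.

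OPC markers lay close between genotypes. Of the 14 not used by the rule, all tested in the Pdgfra+Vcan+ sums, 7 were nominally above and 7 below WT, with a median log2 difference of -0.09 (all genes 0.01) and a range from -0.61 (Cacng4) to 0.47 (Olig2). On the scale of these sums Tnr was at 1715, 2614 and 6026 CPM in SCA1 and 1851, 2480 and 5339 CPM in WT mice (log2 difference 0.05 ± 0.44 SE, edgeR adjusted p = 1). Mouse 3 was highest in both genotypes, and the genotypes overlapped. Sox10 was at 99.5, 249.7 and 265 CPM in SCA1 and 85.9, 205 and 188 CPM in WT mice (0.33 ± 0.31, adjusted p = 1 in edgeR). C1ql1 was the only one whose mice did not overlap, at 77.7, 74.1 and 81.1 CPM in SCA1 and 90.1, 102 and 117 CPM in WT mice (-0.39 ± 0.33, edgeR adjusted p = 1), 1 of 14 against the 4.91% of all genes. As a description, Pdgfra was at 416, 675 and 598 CPM in SCA1 and 522, 820 and 589 CPM in WT mice, and Vcan at 630, 1245 and 2639 CPM and 739, 1066 and 3025 CPM.

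The summed level of the 14 OPC markers not used by the rule was 9584, 14647 and 23575 CPM in the Pdgfra+Vcan+ nuclei of the SCA1 mice and 10076, 13530 and 24139 CPM in those of the WT mice. The sums overlapped, and the first mouse of each genotype, with the most nuclei outside the cluster, was lowest. In the nuclei of the cluster alone they were 18203, 17973 and 26004 CPM and 16129, 13530 and 26848 CPM. Granule neuron genes summed to 1130, 573 and 349 CPM in the Pdgfra+Vcan+ nuclei of the SCA1 mice and 1654, 434 and 175 CPM in WT mice, highest in the first mouse of both. The part of such RNA in the differences between mice was not tested. None of the 22 lists had summed levels that separated all SCA1 from all WT mice in either set of nuclei. Within the 3 pairs of same-numbered mice, 5 lists were higher in SCA1 in every pair of Pdgfra+Vcan+ sums and 0 lower. They were growth factors, glutamate receptors, lineage transcription factors, adhesion and guidance genes, and vascular and fibroblast genes, the last at 0 in WT mice 2 and 3. In the nuclei of the cluster alone the vascular list was no longer higher in every pair, the proteoglycan list was, and Purkinje cell genes were lower in all 3. Oligodendrocytes held 1 list higher in every pair, the vascular and fibroblast genes, and 1 lower, the Purkinje cell genes. The latter summed there to 1693, 1085 and 340 CPM in SCA1 and 3407, 1240 and 786 CPM in WT mice. The glutamate receptor sums of the Pdgfra+Vcan+ nuclei were 16846, 17458 and 20151 CPM in SCA1 and 13278, 15404 and 19933 CPM in WT mice. In the sums of all chosen nuclei 3 lists were higher in every pair (proteoglycans, glutamate receptors, adhesion) and 3 lower (committed precursors, growth factor receptors, Purkinje cell genes). An exact test of 3 pairs cannot go below p = 0.25. With no difference, that share of lists is expected to go in 1 direction in every pair, and some genes are in more than 1 list.

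**Figure D5:**
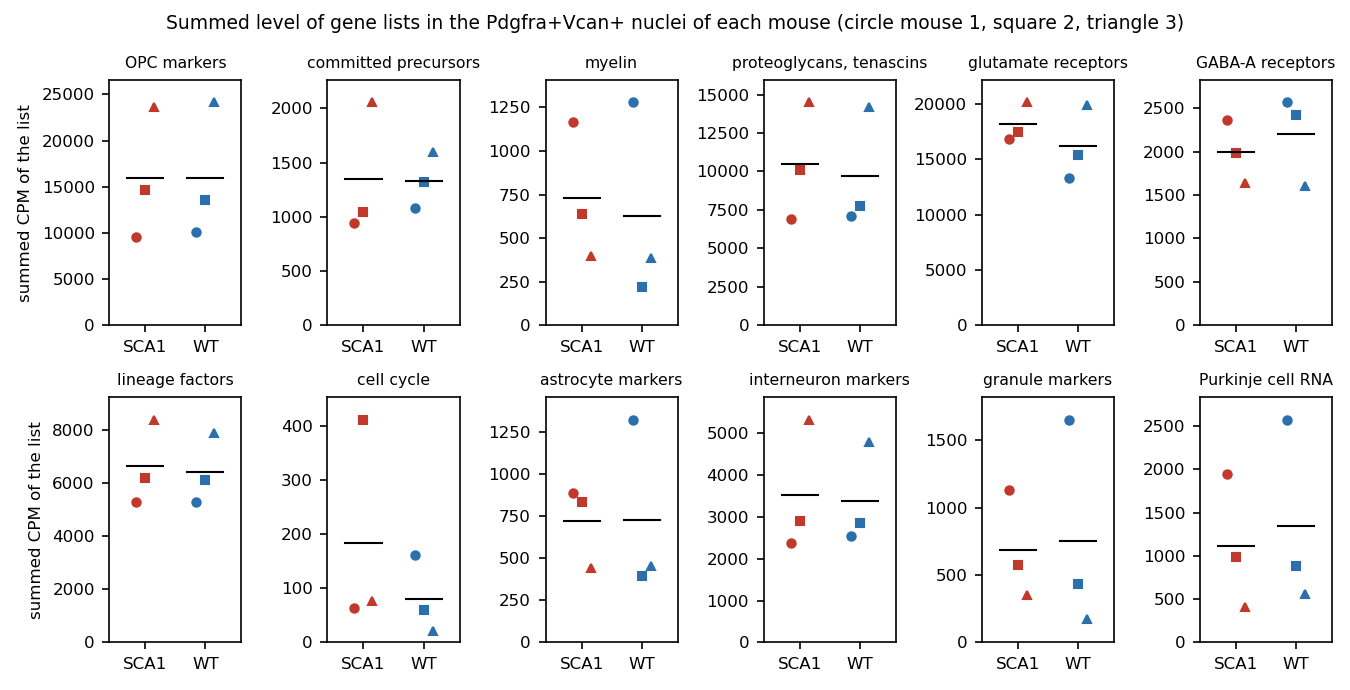
Summed CPM of 12 gene lists without the genes of the rule in the Pdgfra+Vcan+ nuclei of each mouse (y axis of each panel, starting at 0), SCA1 beside WT; points are mice (circle mouse 1, square 2, triangle 3). Without the genes of the rule, the OPC marker sum ran from 9584 to 23575 CPM in SCA1 and from 10076 to 24139 CPM in WT mice.

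In the sums of all chosen nuclei the proteoglycan and tenascin genes held the smallest p among the lists. Of 17 tested, 5 were nominally above and 12 below WT (median -0.14, all genes -0.0041), 2 had an unadjusted p under 0.05 and 0 were called. Tnc, the gene of tenascin-C, was at 6.91, 25.4 and 27.3 CPM in SCA1 and 16.3, 64.9 and 92.5 CPM in WT mice. The groups overlapped, but within each library range the SCA1 mice were lower (-1.13 and -1.52). The log2 difference was -1.50 ± 0.22 SE with an edgeR adjusted p of 0.526, and DESeq2 called it at an adjusted p of 0.0231. Of the Purkinje cell genes 8 were tested, with a median of -0.37, and their sum was 1327, 832 and 477 CPM in the SCA1 and 2317, 914 and 593 CPM in WT mice. Their sum in oligodendrocytes was lower in SCA1 in every pair as well.

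Of the genes whose mice did not overlap, those with the smallest p in the sums of all chosen nuclei were Gm12160, Gm4221, Gm9750, Nat8f3 and Them4 above WT and Zfp804b, Ndst4, Tafa1, C77080 and Gna14 below. Gm12160 had 34, 22 and 24 UMIs in SCA1 and 0 in each WT mouse, at least 16.9-fold higher against the limit of 3 UMIs over the WT group (edgeR adjusted p = 0.526, and 4.96e-08 without the filter; DESeq2 adjusted p = 0.0261). It was also counted outside these nuclei, with 38, 41 and 52 UMIs in oligodendrocytes of the SCA1 mice and 0, 0 and 1 in those of the WT mice, and 244, 246 and 263 against 4, 1 and 1 in granule neurons. Them4 was at 79.8, 102 and 94.1 CPM in SCA1 and 54.1, 51.5 and 59.3 CPM in WT mice (0.71 ± 0.19, edgeR adjusted p = 1). Zfp804b was at 11.5, 13.1 and 6.90 CPM in SCA1 and 33.4, 96.3 and 373 CPM in WT mice (-3.55 ± 0.69, edgeR adjusted p = 1, and 2.36e-29 without the filter on low counts), with WT mouse 3 far above the others. Its difference ran from -4.60 to -2.44 with 1 mouse left out. Ndst4, whose enzyme modifies heparan sulfate chains, was at 39.9, 36.1 and 25.4 CPM and at 78.6, 94.1 and 56.0 CPM (-1.13 ± 0.25, edgeR adjusted p = 1, and 0.0173 without the filter). The fit without the filter also called a gene carried by 1 mouse, so its values are not read as support.

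In the Pdgfra+Vcan+ sums the same rule named Lekr1, Plxna4, Zfp804a, Socs6 and Slc24a2 above WT and Zfhx3, Gtf3c2, Rftn2, Prpf18 and Nacc2 below. The Slc24a2 difference turned from 0.94 to -0.68 when the nuclei of the cluster alone were used. Plxna4, a semaphorin receptor gene, was at 260.5, 339 and 188 CPM in SCA1 and 137, 41.0 and 102 CPM in WT mice (1.35 ± 0.40, edgeR adjusted p = 1). Lekr1 was at 81.8, 70.2 and 59.8 CPM and at 26.7, 20.5 and 20.3 CPM (1.63 ± 0.42, edgeR adjusted p = 1). The values of WT mouse 2 rest on few molecules here, 2 UMIs of Plxna4 and 1 of Lekr1. The homeobox gene Zfhx3 was at 80.5, 81.9 and 55.5 CPM and at 92.9, 451 and 447 CPM (-1.78 ± 0.50, edgeR adjusted p = 1), with WT mouse 1 close to the SCA1 mice.

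Whether the genotype difference was the same in the chosen nuclei and in oligodendrocytes was tested as an interaction across 12 sums. edgeR called 0 of 13853 genes (0.0%; 202 at an unadjusted p under 0.05) and DESeq2 0 (77), and with Pdgfra+Vcan+ nuclei edgeR called 0 of 11169 (0.0%; 135). The smallest p among genes that separated the mice belonged to Gm14033, Sema3a and Dusp10 in one direction and to Lama1, Chsy3 and Chst3 in the other, each with an edgeR adjusted p of 1. With low-count genes kept in, edgeR called 5 genes, Lama1 (adjusted p = 0.0444) among them. For the chondroitin synthase gene Chsy3, the log2 difference between chosen nuclei and oligodendrocytes was -1.45, -1.61 and -1.43 in SCA1 and -0.41, -0.53 and -0.82 in WT mice, an interaction of -0.92 ± 0.23 SE. For the guidance gene Sema3a it was 3.57, 2.69 and 3.46 in SCA1 and 2.28, 2.23 and 1.68 in WT mice, an interaction of 1.51 ± 0.42 SE. In the chosen nuclei Sema3a overlapped between genotypes, without TMM scaling at 65.3, 23.1 and 23.7 CPM in SCA1 and 52.4, 57.5 and 31.2 CPM in WT mice. The interaction thus does not mean a higher Sema3a level in the chosen nuclei of SCA1 mice.

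Transgene RNA was not detected in the Pdgfra+Vcan+ nuclei. Human ATXN1 had 0 UMIs there in all 6 mice, which allows up to 3.85 to 59.2 CPM depending on the mouse. In the SCA1 mice the limits were 3.85, 10.68 and 10.91 CPM. Purkinje-labelled nuclei of the same mice held 4.93, 14.03 and 10.96 CPM. Levels slightly below those of Purkinje-labelled nuclei were thus not excluded. Among all chosen nuclei human ATXN1 had 2, 4 and 1 UMIs in SCA1 and 1, 1 and 0 in WT mice. Mouse Atxn1 was at 296 to 546 CPM in the Pdgfra+Vcan+ nuclei and 135 to 214 CPM in oligodendrocytes, apart and higher by 1.04 ± 0.36. Between genotypes it was at 395, 328 and 555 CPM in SCA1 and 398, 471 and 421 CPM in WT mice of the Pdgfra+Vcan+ sums (-0.01 ± 0.32 SE, edgeR adjusted p = 1).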

How the data were processed

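Nuclei of whole cerebella from 3 SCA1 and 3 WT mice were sequenced on the 10x Genomics platform. Per the labels, Cell Ranger (versions 4.0.0, 5.0.1 and 6.0.1 are listed in the submitters' processing notes), mm10, R 4.1.0 and Seurat 4.0.4 were used; the authors removed debris with DIEM and assigned labels with SingleR. The authors deposited 1 table of UMI counts per mouse after these steps, with the SingleR label and Seurat cluster of each nucleus. The members and gene lists were chosen with earlier results of these data known. How doublets were treated is not given in the sources used here, and no caller was run.

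From the counts, nuclei were selected by the rule and summed per mouse, since nuclei of 1 mouse are not replicates. Oligodendrocytes and other types were nuclei whose label was the most frequent of their cluster and which the rule had not chosen. Sums were tested with edgeR 4.0.16 (filterByExpr, TMM, quasi-likelihood; genotype + library number range as batch) in R 4.3.3, with Benjamini-Hochberg adjustment over all genes, and with DESeq2 1.42.0 and limma 3.58.1 as alternatives. The interaction model held mouse, cell class and class by genotype. Shares were compared with scipy 1.17.1 by two-sided exact permutation. The fits were tested on simulated data first. With a simulated log2 change of 1.5, edgeR called 43.9% of the changed genes it tested in sums with the mean levels and depth of all chosen nuclei. In sums with those of the Pdgfra+Vcan+ nuclei it called 37.9%, so changes of that size can be missed. The simulation gave all genes the same spread and held no batch or mouse effect, so these shares need not hold for the real sums. The study's model had a batch term, and its debris filter was stricter for the 2 samples of a first sequencing run, which are not named there. The library ranges used here as batch were read from the numbers in the labels. The lowest depth of a nucleus was 3890 and 3932 UMIs in the mice of the first range and 1000 to 1739 in the others.

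Same-numbered mice deviated together from their genotype means (r = 0.681, 0.185 and 0.579 over 13603 genes). For unlike numbers r ran from -0.648 to 0.127 (SCA1 mouse 3 with WT mouse 2), the latter close to the 0.185 of the second pair. The first mice also shared a library range. The numbers were taken as pairs in an alternative fit with a replicate block, a pairing read from these same data. Named genes were all OPC markers, the highest, median and lowest member of each other list, the 12 largest differences from oligodendrocytes in each direction and the 12 most specific genes at 50 CPM or more, and, with no gene called, the 5 smallest p in each direction among genes whose mice did not overlap (3 for the interaction), with ATXN1 and Atxn1; other genes named were chosen after their values were seen. Promoters are from RefSeq on GRCm38.p6, where 10 of the 16 OPC markers had a window.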

Additional observations from a re-analysis of the deposited data

How the results depend on the processing

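Differences are SCA1 minus WT. The difference in the percent of chosen nuclei, 0.479 points in all mice, changed sign with nuclei of at least 3000 UMIs (-0.0037), with nuclei thinned to 3000 UMIs (-0.060), with at least 1 Pdgfra UMI required (-0.025), with only Pdgfra detected (-0.025), with both genes in the cluster (-0.036) and without WT mouse 2 (-0.251), and ran from -0.251 to 1.14 with 1 mouse left out. Per 100 oligodendrocytes, 12.3 in all mice, it was -5.08, -4.20, -1.21, -0.732 and -1.77 under the same first 5 settings and -0.480 with both genes detected, and -7.74 (without WT mouse 2) to 35.9 with 1 mouse left out. With 1 mouse left out the Gpr17 difference ran from -1.66 to 2.90 points and that of cell cycle genes from -1.43 to 7.60, changing sign in each without SCA1 mouse 1 (-1.22 and -1.43), WT mouse 2 (-1.66 and -0.532) or WT mouse 3 (-1.18 and -0.030). With 3 mice a genotype the exact test of a share cannot go below p = 0.1, so no setting could pass it. The count of genes called between genotypes was 0, and became 18 with no filter on low counts, 2 with DESeq2, 1 with a minimum of 3 Pdgfra plus Vcan UMIs, 15 for Pdgfra+Vcan+ nuclei with no filter, and 0 to 2 with 1 mouse left out. The interaction count was 0, and 5 with no filter. Genes at an unadjusted edgeR p under 0.05 between genotypes numbered 211, but 62 with no batch term and 617 with the replicate block. With 1 mouse left out they numbered 173 to 432. For the interaction there were 202, and 125 to 579 with 1 mouse left out. The replicate block left both counts of genotype calls at 0, and the mean paired difference in shares is 0.479 points by construction (exact p = 0.75). Genes apart from oligodendrocytes numbered 3944 for all chosen nuclei, 2230 with at least 1 Pdgfra UMI required and 2203 with both genes detected. The Slc24a2 difference, 0.94 in Pdgfra+Vcan+ nuclei, was -0.68 in those of the cluster. Of 22 list medians for all chosen nuclei, 7 moved by more than their spread over mice with 10 CPM added, 10 with at least 1 Pdgfra UMI and 13 with both genes detected. In Pdgfra+Vcan+ nuclei, with the genes of the rule kept in, adding 10 CPM took the OPC marker median from 5.48 to 4.06. The myelin median went from -5.37 to -4.17. The causes were not tested. Sets split by which selecting gene was detected, and settings within them, were chosen after seeing the data.

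Most chosen nuclei carried markers of other cell types, so results for all of them do not describe OPCs alone. Pdgfra+Vcan+ nuclei numbered 10 and 17 in WT mice 2 and 3, and depth limits what their sums can show, most of all in WT mouse 2 with 50702 UMIs. Library range and nuclei outside the cluster went together, since both mice of the first range held most of the latter, and they cannot be told apart.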

Other observations

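The clusters that held most Pdgfra+Vcan+ nuclei also held nuclei that the rule did not choose. They numbered 6, 8 and 20 in SCA1 and 8, 59 and 0 in WT mice. One or more UMIs of Cspg4, Sox10, Neu4 or C1ql1 was found in 6, 8 and 3 of them in SCA1 and in 8, 3 and 0 in WT mice, against 4.17% of granule neurons. Mog was detected in 5, 7 and 3 nuclei of these clusters in SCA1 and in 8, 6 and 0 in WT mice, and the rule left those out. In SCA1 mouse 3 the most frequent label of the cluster was a Slc17a6 neuron type (16 of 39 nuclei), and in WT mouse 2 an inhibitory neuron type marked by Lgi2 (29 of 76).

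In Pdgfra-Vcan+ nuclei the 14 OPC markers not used by the rule summed to 2786, 3564 and 3743 CPM in SCA1 and 2312, 3342 and 3343 CPM in WT mice. This sum holds genes that other types also express, such as Lhfpl3, at a mean of 456 CPM there and 1143 CPM in Slc17a6 and Nrgn neurons. Astrocyte markers summed there to 1846, 2500 and 2196 CPM and to 1609, 2571 and 1901 CPM, against 648, 732 and 483 CPM and 1192, 394 and 488 CPM in Pdgfra+Vcan+ nuclei of the cluster.

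A few genes had counts in some mice far above the others. Ttr, an abundant choroid plexus gene, had 1862 UMIs among the chosen nuclei of SCA1 mouse 1 against 3 and 1 in the other SCA1 mice and 7, 20 and 95 in WT mice. Ranbp3l had 251, 12 and 186 UMIs in SCA1 and 28, 4 and 35 in WT mice. These genes were chosen after their values were seen.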
